A study of Mus musculus with 12 samples.

Results

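Described here are 6 genes of the helix-loop-helix family in a mouse B cell lymphoma: the E protein genes Tcf3, Tcf4 and Tcf12 and the Id genes Id1, Id2 and Id3. They were chosen by name, as known regulators of early B cells, with no measured value in the rule, though earlier results of these data were known. All 6 were found among the 23479 genes of the table of normalized read counts, and all 6 were among the 13111 tested genes, those that reached 10 in 3 or more libraries.

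The cells came from 1 B cell lymphoma of a C57BL/6 mouse with the transgenes Eµ-Myc and Eµ-rtTA, both driven by the immunoglobulin heavy chain enhancer Eµ, so high Myc is shared by every group. The lymphoma received either an empty retrovirus with a puromycin resistance marker (vector cells) or one that also carried TFEB-ERT2 (TFEB cells), in which 1 serine of TFEB is changed to alanine and ERT2 is a mutant hormone-binding part of the estrogen receptor. TFEB drives genes of lysosomes and autophagy, and ERT2 fusions become active when 4-hydroxytamoxifen (4-OHT) binds them. Each line was grown with the cytokine IL-7 and received vehicle or 4-OHT for 4 days, at 250 nM per the labels' protocols (the design text gives the same figure in another unit), with 3 libraries in each of the 4 groups. Each line is a single selected population from 1 tumour, and the labels do not say whether the 3 libraries of a group came from separate cultures, so the spread behind each p-value may be technical.

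E proteins bind the DNA sequence CANNTG, called an E-box, as pairs of helix-loop-helix proteins, and in B cell progenitors they switch on the genes of the early B lineage, among them Ebf1, Foxo1, Pax5, Rag1, Rag2 and the surrogate light chain genes. Id proteins have the helix-loop-helix part but lack the basic part that touches DNA, so a pair of an E protein with an Id protein cannot bind. The balance of E and Id proteins is therefore commonly used to describe how active E proteins can be. Tcf3 encodes the splice forms E12 and E47, and Tcf4 and Tcf12 encode the related proteins E2-2 and HEB. TFEB is itself a basic helix-loop-helix protein with a leucine zipper, which binds a form of the E-box with the core CACGTG and does not pair with E proteins.

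On the mouse build GRCm38 (mm10) with GENCODE M21, Id3 lies at chr4:136143497-136145755 on the plus strand, Id2 at chr12:25093799-25097140 on the minus strand and Id1 at chr2:152736251-152737410 on the plus strand. Tcf3 lies at chr10:80409514-80433647 on the minus strand and Tcf12 at chr9:71842688-72111871, also on the minus strand. The E protein genes are long and have many annotated transcripts, 14 for Tcf3, 21 for Tcf12 and 62 for Tcf4, so a gene count says nothing about which splice form was made. Genes annotated inside Tcf12 (11, of which 4 are on the opposite strand) and inside Tcf4 (1) span no exon of either.

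The promoters of Id3, Id2 and Tcf3 are shown because these genes fell when TFEB cells received 4-OHT. Tcf4 fell too, and its promoter was not used here. Each is the 250 bases before the RefSeq transcription start (GRCm38.p6), 5′ to 3′ on the gene's strand, with every E-box CANNTG in capitals. The windows are chr4:136143572-136143821 (plus strand), chr12:25096093-25096342 (minus) and chr10:80433636-80433885 (minus). Those of Id3 and Id2 lie inside the GENCODE spans given above, which begin further upstream. Sequence before such other starts was not searched.
Id3: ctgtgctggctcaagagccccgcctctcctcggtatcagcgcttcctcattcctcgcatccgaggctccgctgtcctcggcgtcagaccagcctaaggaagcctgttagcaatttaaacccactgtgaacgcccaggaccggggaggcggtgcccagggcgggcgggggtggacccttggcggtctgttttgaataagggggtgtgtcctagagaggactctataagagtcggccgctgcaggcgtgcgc
Id2: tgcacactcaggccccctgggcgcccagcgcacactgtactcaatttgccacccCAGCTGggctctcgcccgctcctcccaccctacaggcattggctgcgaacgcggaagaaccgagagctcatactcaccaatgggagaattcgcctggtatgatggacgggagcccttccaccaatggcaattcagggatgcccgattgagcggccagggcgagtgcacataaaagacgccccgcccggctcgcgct
Tcf3: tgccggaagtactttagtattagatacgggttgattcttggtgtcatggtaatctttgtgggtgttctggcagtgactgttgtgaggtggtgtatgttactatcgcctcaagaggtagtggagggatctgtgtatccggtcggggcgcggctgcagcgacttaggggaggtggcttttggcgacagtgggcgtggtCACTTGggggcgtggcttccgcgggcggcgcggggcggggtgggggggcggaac
The Id3 window held 0 E-boxes. Id2 held 1, CAGCTG, whose first base lies 196 bases before the start, and Tcf3 held 1, CACTTG, at 54 bases before the start. None of the 3 windows held CACGTG. Of 32851 such windows of 27025 genes, 66.2% held CANNTG on either strand, 13.0% held CAGCTG, 17.2% held CACCTG or CAGGTG and 6.02% held CACGTG, forms that are all counted in CANNTG. A match is a run of letters and was not tested as a binding site.

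The libraries held 11849029 to 22109283 reads in genes, so that 3 reads, the floor used to describe low counts, were worth 2.21 to 4.15 normalized counts. Genes with reads numbered 11390 to 19250 per library, most of all in vector 4-OHT 2 and TFEB 4-OHT 2. Results were also computed without the library with most such genes in each group but vector vehicle (vector 4-OHT 2, TFEB vehicle 1 and TFEB 4-OHT 2), the 3 gene-rich libraries in what follows. They are the richest of their own groups only: TFEB 4-OHT 3, with 16563 such genes, was kept, while TFEB vehicle 1 had 16471. Tfeb read 223 to 255 normalized counts in vector cells in vehicle and 195 to 238 in 4-OHT, against 1476 to 1955 in TFEB cells in vehicle and 581 to 711 in 4-OHT, higher in every library of the TFEB line. Myc was high in all groups but not equal, at 25548 to 27312 in TFEB cells in 4-OHT and 29680 to 33633 elsewhere. That group differed from vector cells in 4-OHT (limma adjusted p = 0.0339), and missed the threshold against TFEB cells in vehicle (0.052). Of 8 B cell markers Ms4a1 was at or near 0 (highest 20.7), and the summed level of all 8 was 36586 to 40528 in the other groups and 27214 to 28745 in TFEB cells in 4-OHT. Not all of them moved alike, since Blnk and Cd79a averaged highest in that group. Macrophage markers summed to 238 to 417 in that group and 59.2 to 135 in the others, mostly Cd68, with Lyz2 at 6 or less. Natural killer markers summed to 150 to 213 against 24.5 to 56.6, mostly Prf1. T cell markers were mostly Lck (sums of 401 to 785 over all libraries), with Cd3e, Cd3d and Cd3g at 24.5 or less. Plasmacytoid dendritic cell markers were mostly Bst2, with Siglech at 23.5 or less, stromal markers were mostly Pecam1, and erythroid and platelet markers summed to at most 16.6. The part of these other cell types in the results was not tested.

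In TFEB cells that received 4-OHT, Id3, Id2, Tcf4 and Tcf3 fell and Tcf12 rose a little. Id3 moved most, 11.5-fold lower, and Id2 and Tcf4 fell 2.7-fold and 1.94-fold. In TFEB cells 5 of the 6 genes passed the test (limma, adjusted p under 0.05), beside 27.5% of all tested genes, and in these 5 genes the 4-OHT libraries did not overlap the vehicle libraries, beside 38.0% of all tested genes. With edgeR on the recovered reads 4 of the 6 passed, all but Tcf12 and Id1, beside 25.9% of tested genes. Id1 was too low to compare. In bulk RNA, fewer cells with a transcript and less of it per cell cannot be told apart.

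**Figure D1:**
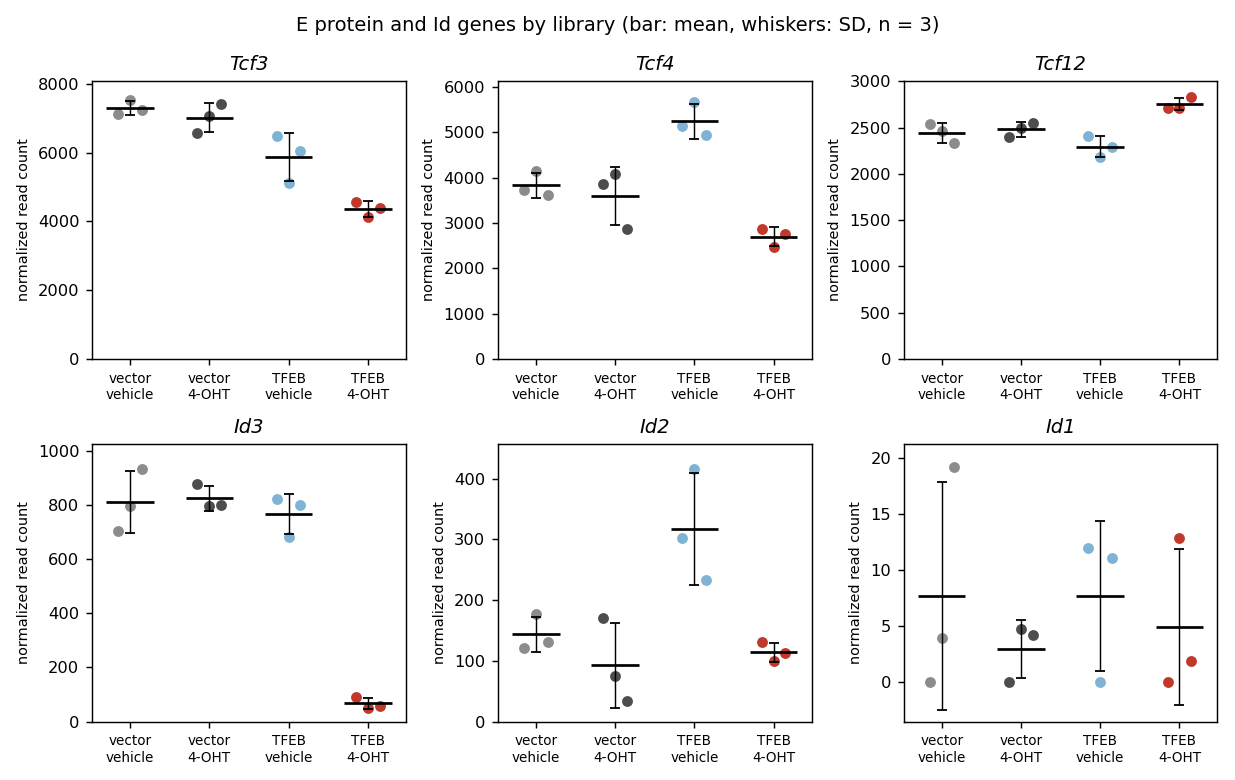
Normalized read counts of the 3 E protein genes and 3 Id genes in each of the 12 libraries, by group (points: libraries, bar: mean, whiskers: SD, n = 3, y axes start at 0 except for Id1, whose whiskers run below it). Id3 lies between 51.6 and 91.5 in TFEB cells in 4-OHT and at 682 or more in the other 9 libraries, and Id1 stays at 19.2 or less.

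Among the inhibitors, Id3, the Id gene with the highest level per kilobase of exon in vector cells, read 820, 682 and 798 normalized counts in TFEB cells in vehicle and 91.5, 51.6 and 59.2 in 4-OHT. In vector cells it read 704, 795 and 932 in vehicle and 878, 796 and 799 in 4-OHT. The 3 libraries of TFEB cells in 4-OHT were thus low, and the other 9 overlapped one another. The log2 change with 4-OHT in TFEB cells was -3.53 ± 0.18 (SE, adjusted p = 2.97e-16, limma), which ranked 36 from the bottom among the 13111 tested genes. In vector cells the change was 0.03 ± 0.18 (95% CI -0.33 to 0.4, adjusted p = 0.989, limma), and the difference between the 2 responses, the interaction, was -3.56 ± 0.25 (adjusted p = 2.84e-12, limma). Without the 3 gene-rich libraries the Id3 change was -3.31 in TFEB cells.

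Id2 is the Id gene best known for its part in innate lymphoid and natural killer cells. It read 303, 416 and 234 normalized counts in TFEB cells in vehicle and 131, 99.4 and 113 in 4-OHT. In vector cells it read 122, 177 and 132 in vehicle and 170, 74.7 and 33.8 in 4-OHT, a spread of the same order as its mean (92.7 ± 69.7, SD, n = 3). TFEB cells in vehicle were therefore the high group, above all other libraries, while the other 3 groups overlapped. The change with 4-OHT was -1.43 ± 0.38 in TFEB cells (adjusted p = 0.00382, limma) and -0.9 ± 0.38 in vector cells (95% CI -1.67 to -0.13, adjusted p = 0.699, limma). The interaction of Id2 did not pass the test, -0.54 ± 0.53 (95% CI -1.62 to 0.55, adjusted p = 0.618, limma), so a fall specific to TFEB cells was not shown. Its sign turned to 0.04 without the library vector 4-OHT 1.

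Id1 read 12, 0 and 11.1 normalized counts in TFEB cells in vehicle and 0, 12.9 and 1.94 in 4-OHT. In vector cells it read 0, 3.93 and 19.2 in vehicle and 0, 4.75 and 4.23 in 4-OHT. Each group had 1 library at 0, and the 3 libraries of a group held 27, 9, 22 and 12 reads in all (vector vehicle, vector 4-OHT, TFEB vehicle, TFEB 4-OHT), so no difference was detectable at this depth. Id4, the remaining Id gene, was not tested: it read 23.7 in vector 4-OHT 2 and 9.04 in TFEB 4-OHT 2, the libraries with most genes detected, and 0 in the other 10 libraries.

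Among the E proteins, Tcf4, which lies at chr18:69343356-69689079 on the plus strand, read 5131, 5676 and 4928 normalized counts in TFEB cells in vehicle and 2866, 2469 and 2756 in 4-OHT. In vector cells it read 3737, 4143 and 3613 in vehicle and 3849, 4068 and 2859 in 4-OHT. Vehicle-treated TFEB cells were the highest group and 4-OHT-treated TFEB cells the lowest, with 1 vector library (4-OHT 3) reaching down to them. The change with 4-OHT was -0.96 ± 0.1 in TFEB cells (adjusted p = 6.74e-09, limma) and -0.11 ± 0.1 in vector cells (95% CI -0.32 to 0.1, adjusted p = 0.939, limma). The interaction was -0.85 ± 0.14 (adjusted p = 4.92e-05, limma) and -0.71 without the 3 gene-rich libraries (adjusted p = 0.00592, limma).

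Tcf3, the main E protein gene of B cell progenitors, read 6478, 5115 and 6049 normalized counts in TFEB cells in vehicle and 4569, 4119 and 4398 in 4-OHT. It read 7128, 7527 and 7241 in vector cells in vehicle and 6571, 7059 and 7428 in 4-OHT. The TFEB libraries all lay below the vector libraries, and those in 4-OHT were lowest. The fall with 4-OHT was 1.34-fold in TFEB cells (log2 -0.43 ± 0.09, adjusted p = 0.00023, limma), against -0.06 ± 0.09 in vector cells (95% CI -0.23 to 0.12, adjusted p = 0.953, limma). The interaction of Tcf3 was -0.37 ± 0.12 (adjusted p = 0.0337, limma). That call was lost without vector vehicle 1 or 3, vector 4-OHT 2 or 3, TFEB vehicle 1 or 3, or TFEB 4-OHT 2 or 3, each left out alone (limma adjusted p of 0.0604 to 0.112), and the change was -0.25 without the 3 gene-rich libraries (adjusted p = 0.28, limma).

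Tcf12 read 2407, 2179 and 2292 normalized counts in TFEB cells in vehicle and 2715, 2715 and 2827 in 4-OHT. In vector cells it read 2537, 2462 and 2330 in vehicle and 2393, 2500 and 2546 in 4-OHT. TFEB cells in 4-OHT were above all other libraries by a small margin, and the other groups overlapped. The rise was 1.2-fold (log2 0.26 ± 0.08, adjusted p = 0.0152, limma), and it missed the threshold without TFEB vehicle 2 (0.23, adjusted p = 0.0574), without TFEB 4-OHT 3 (0.24, adjusted p = 0.0711) and in edgeR on the recovered reads (0.23, adjusted p = 0.063). The interaction of Tcf12 was 0.24 ± 0.12 (95% CI 0 to 0.48, adjusted p = 0.186, limma).

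In vector cells, where 4-OHT meets no ERT2 fusion, 0 of the 6 genes passed (limma), beside 0.0153% of all tested genes. Only 2 genes passed in all, both lower, with 822 at an unadjusted p under 0.05, 0 by edgeR and 48 by DESeq2. The groups overlapped in all 6, while 10.8% of tested genes did not overlap. Of the 6, Id2 alone had an unadjusted p under 0.05 (0.0235, limma). In the interaction 3 of the 6 passed, Id3, Tcf4 and Tcf3, all lower, beside 15.8% of tested genes (8.01% lower, 7.75% higher). With edgeR the same 3 genes passed, beside 14.8%.

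Without 4-OHT the 2 lines already differed in Tcf3 and Tcf4. TFEB cells in vehicle had less Tcf3 than vector cells in vehicle, 5881 ± 697 against 7299 ± 206 normalized counts (SD, n = 3), and more Tcf4, 5245 ± 387 against 3831 ± 277. Both passed, Tcf3 at -0.32 ± 0.09 (adjusted p = 0.0219, limma) and Tcf4 at 0.45 ± 0.1 (adjusted p = 0.00526, limma), so 2 of the 6 genes were called beside 5.38% of tested genes. With edgeR both passed too (adjusted p = 0.0278 and 0.0175), beside 4.93%. The Tcf3 call was lost without vector vehicle 2 (adjusted p = 0.0948), vector vehicle 3 (0.0639) or TFEB vehicle 2 (0.158). Id2 was 2.17-fold higher in TFEB cells, 318 ± 92.1 against 144 ± 29.4, without passing (log2 1.12 ± 0.38, adjusted p = 0.0835, limma), though its libraries did not overlap (234 or more against 177 or less). Tcf3, Tcf4 and Id2 were thus the 3 genes without overlap, beside 21.6% of tested genes. It did pass without vector 4-OHT 1 (adjusted p = 0.0323) or vector 4-OHT 3 (adjusted p = 0.0185), libraries that enter through the shared spread. Id3 and Tcf12 differed by -0.08 ± 0.18 (95% CI -0.44 to 0.29, adjusted p = 0.858) and -0.09 ± 0.08 (95% CI -0.26 to 0.08, adjusted p = 0.607) in the limma fit.

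With 4-OHT in both lines, Id3 was 12.4-fold lower in TFEB cells (67.4 ± 21.2 against 824 ± 46.6 normalized counts, adjusted p = 1.43e-16, limma). Tcf3 was 1.61-fold lower (4362 ± 227 against 7020 ± 430, adjusted p = 1.33e-07, limma) and Tcf4 1.32-fold lower (2697 ± 205 against 3592 ± 644, adjusted p = 0.00309, limma). These 3 of the 6 genes were called, beside 27.1% of tested genes, and edgeR called them as well, beside 25.6%. Libraries did not overlap for Id3, Tcf3 and Tcf12, 3 of the 6, beside 39.1% of tested genes. The Tcf4 libraries overlapped (highest TFEB library 2866, lowest vector library 2859), and its difference was -0.24 without the 3 gene-rich libraries (adjusted p = 0.18, limma). Id2 differed by 0.58 ± 0.38 (95% CI -0.19 to 1.35, adjusted p = 0.295) and Tcf12 by 0.15 ± 0.08 (95% CI -0.02 to 0.32, adjusted p = 0.199) in the limma fit. Without vector 4-OHT 1, the highest vector library in 4-OHT for Id2, that gene passed (1.16, adjusted p = 0.0157, limma). The comparisons share libraries, so the values of 1 gene across them are not separate measurements.

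**Figure D2:**
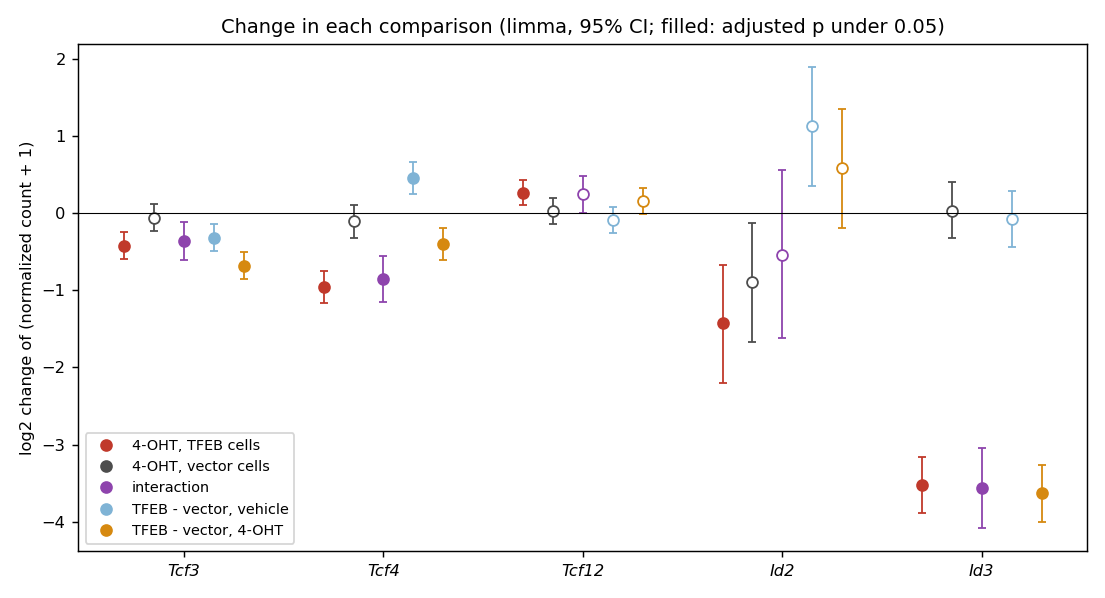
Log2 change of the normalized count + 1 in each of the 5 comparisons for the 5 genes with levels above the floor (points: limma estimate, bars: 95% CI, filled: adjusted p under 0.05, open: not), where interaction is the 4-OHT change in TFEB cells minus that in vector cells. Id3 sits between -3.63 and -3.53 in the 3 comparisons that contain TFEB cells in 4-OHT and near 0 in the other 2, and Tcf4 is above 0 in vehicle and below 0 in 4-OHT between the lines.

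Per kilobase of annotated exon, the scale on which different genes can be set side by side, Tcf3 was the highest of the 6 genes in every group, with 1807 ± 50.9, 1738 ± 106, 1456 ± 173 and 1080 ± 56.3 normalized counts per kb (vector vehicle, vector 4-OHT, TFEB vehicle, TFEB 4-OHT, SD, n = 3). Id3 was the second in 3 groups, at 452 ± 64, 460 ± 26 and 428 ± 41.4, and fell to 37.6 ± 11.8 in TFEB cells in 4-OHT. There it lay beside Id2, at 46.9 ± 6.57, and the ranges of the 2 genes overlapped (28.8 to 51.1 and 40.8 to 53.8). Tcf4 and Tcf12 lay near each other in vector cells (140 ± 10.1 and 157 ± 6.75 in vehicle), Tcf4 was above Tcf12 in TFEB cells in vehicle (192 ± 14.1 against 148 ± 7.34) and below it in 4-OHT (98.5 ± 7.48 against 177 ± 4.17). Id1 was lowest, at 2.58 to 6.64 on average. Tcf3 made up 78.5% to 87.3% of the summed E protein level over the 12 libraries. Its mean share by group was lower, 66.3% to 74.8%, when the longest coding transcript gave the length. The order of the genes below it depends on the length too. With that transcript Tcf4 held 13.5% and Tcf12 11.7% in vector cells in vehicle, the reverse order. Id3 then no longer ranked above Tcf4 on average in TFEB cells in vehicle.

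Id3 held 85.4% to 96.2% of the summed Id level per kb in vector cells, 69% to 80.9% in TFEB cells in vehicle and 35.7% to 48.7% in 4-OHT, where Id2 held 50.5% to 57.1%. These 3 ranges did not overlap, and on this scale the order of Id3 and Id2 was the reverse in the last. In TFEB 4-OHT 1 the 2 shares were close, 48.7% for Id3 and 51.3% for Id2. The order rests on the lengths used, 1.79 kb for Id3 and 2.44 kb for Id2. The longest coding transcripts, 1.28 kb and 1.97 kb, raise Id3 relative to Id2. The shares were not computed with those lengths.

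The summed E protein level divided by the summed Id level, per kb of exon, was 4.66, 4.18 and 3.51 in vector cells in vehicle and 3.43, 4.29 and 4.55 in 4-OHT. In TFEB cells it was 3.28, 2.93 and 3.31 in vehicle and 13.4, 15.9 and 17 in 4-OHT. Of the other 9 libraries, TFEB cells in vehicle (2.93 to 3.31) lay just below vector cells (3.43 to 4.66). The group of TFEB cells in 4-OHT stood apart from all 9. Both sums were lower in it: the E protein sum was 1356 ± 64.4 against 1795 ± 168 per kb in vehicle, and the Id sum 88.9 ± 14 against 565 ± 24.2 (SD, n = 3). With the longest coding transcript as the length the ratio was 3.68 to 5.31 in the other 3 groups and 16.7 to 21.5 in TFEB cells in 4-OHT. On that scale TFEB cells in vehicle (3.68 to 3.97) overlapped vector cells in 4-OHT (3.95 to 5.04). The ratio is of mRNA and not of protein, and no test was run on it, since it is a score over the 6 genes.

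**Figure D3:**
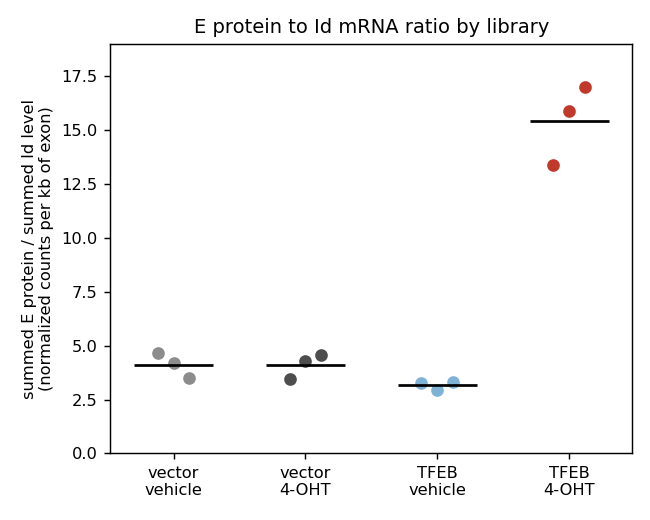
Summed level of Tcf3, Tcf4 and Tcf12 divided by that of Id1, Id2 and Id3 in normalized counts per kb of annotated exon, for each library (points) with the group mean (bar). TFEB cells in 4-OHT lie between 13.4 and 17 and the other 9 libraries at 4.66 or less.

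E proteins act with partners, and 19 genes of partners and cofactors were listed, of which 15 were tested. With 4-OHT in TFEB cells 4 rose (beside 13.7% of tested genes), 4 fell (beside 13.9%) and 7 did not pass, with a median log2 change of -0.06 against 0.035 for all tested genes. In vector cells 0 of the 15 passed, beside 0.0153% of tested genes. Those that rose were Lmo2, Cbfa2t3, Ep300 and Crebbp, and those that fell were Runx1, Lmo4, Cbfa2t2 and Hdac2. The count of 4 that fell was 2 without TFEB vehicle 2, without TFEB 4-OHT 2 and without the 3 gene-rich libraries.

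Lmo2 encodes a bridge between E protein pairs and Ldb1 that is known as a T cell oncogene. It read 72.8, 83.2 and 141 normalized counts in TFEB cells in vehicle and 1304, 1220 and 1288 in 4-OHT. In vector cells it read 51.6, 33.1 and 44.4 in vehicle and 55.8, 35.6 and 54.1 in 4-OHT. The rise was 13.3-fold (log2 3.73 ± 0.32, adjusted p = 5.12e-11, limma), with an interaction of 3.56 ± 0.45 (adjusted p = 3.58e-07, limma), and TFEB cells in vehicle were already above vector cells (1.15 ± 0.32, adjusted p = 0.0265, limma). That vehicle difference missed the threshold without vector vehicle 2 (0.97, adjusted p = 0.129), vector vehicle 3 (1.18, 0.0541), TFEB vehicle 3 (0.86, 0.128) or TFEB 4-OHT 3 (1.15, 0.057). Ldb1 itself, which joins such complexes, read 2376 ± 292 in vehicle and 2276 ± 9.66 in 4-OHT (adjusted p = 0.75, limma).

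Lyl1, a class II helix-loop-helix protein that pairs with E proteins, read 750, 751 and 560 normalized counts in TFEB cells in vehicle and 1717, 1665 and 1895 in 4-OHT. Its vector libraries lay between 677 and 861, so that the 4-OHT-treated TFEB cells stood above all others. The rise was 2.58-fold (adjusted p = 9.49e-11, limma) with an interaction of 1.13 ± 0.17 (adjusted p = 7.51e-06, limma). Tal1, its close relative, was not tested and read at most 21.4. Cbfa2t3, the corepressor ETO2, rose 1.52-fold from 1227 ± 176 to 1857 ± 32.1 (adjusted p = 3.21e-05, limma), with an interaction of 0.69 ± 0.15 (adjusted p = 0.000928, limma).

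Runx1, a transcription factor that works beside E proteins at lymphoid genes, fell 1.7-fold from 4315 ± 225 to 2545 ± 212 normalized counts (adjusted p = 1.24e-08, limma), with an interaction of -0.75 ± 0.12 (adjusted p = 1.62e-05, limma). Lmo4, which competes with Lmo2 for Ldb1, fell 1.42-fold from 1336 ± 170 to 942 ± 120 (adjusted p = 0.000779, limma). Vector cells held 1962 ± 127 Lmo4 in vehicle and 1943 ± 217 in 4-OHT, above both TFEB groups. The histone acetyltransferase genes Ep300 and Crebbp, coactivators of E proteins, rose 1.24-fold (adjusted p = 0.00299) and 1.23-fold (adjusted p = 0.00344) in the limma fit. The repressor genes Cbfa2t2 and Hdac2 fell 1.34-fold (adjusted p = 0.0326) and 1.2-fold (adjusted p = 0.0245).

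**Figure D4:**
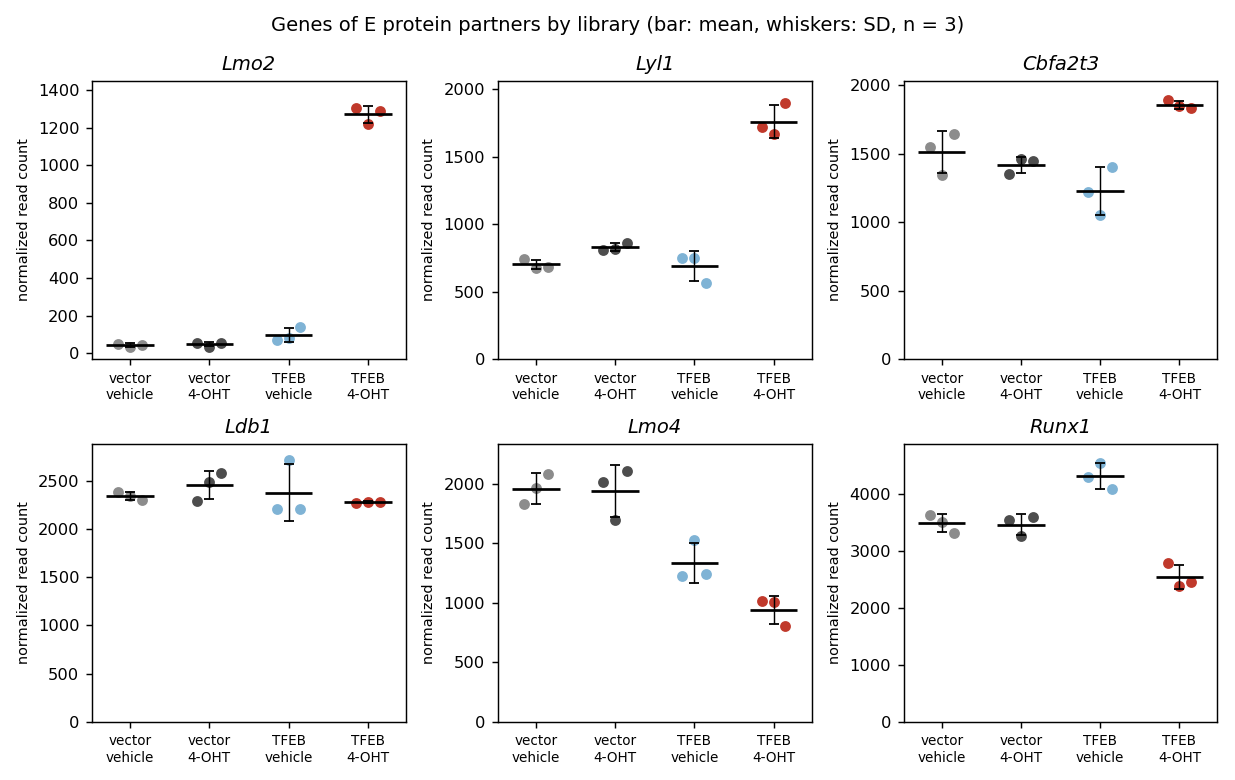
Normalized read counts of 6 genes of E protein partners in each library by group (points: libraries, bar: mean, whiskers: SD, n = 3). Lmo2 lies at 1220 or more in TFEB cells in 4-OHT and at 141 or less in all other libraries, Lyl1 and Cbfa2t3 are also highest there, and Runx1 and Lmo4 are lowest.

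Of 44 further Id and helix-loop-helix genes, 43 were in the table and 6 were tested, since the neural and muscle genes of this list were at or near 0. With 4-OHT in TFEB cells 3 rose (Lyl1, Bhlhe40 and Bhlhe41, beside 13.7% of tested genes), 1 fell (Bhlha15, beside 13.9%) and 2 did not pass, with a median of 0.45 against 0.035 for all tested genes. In vector cells 0 passed, beside 0.0153% of tested genes. Bhlhe40, a repressor that binds E-boxes as its own pairs, read 452, 396 and 390 normalized counts in TFEB cells in vehicle and 1453, 1301 and 1291 in 4-OHT, against 27.1 to 270 in vector cells. The rise was 3.27-fold (adjusted p = 0.00102, limma), with an interaction of 2.57 ± 0.55 (adjusted p = 0.000948, limma). Without a variance trend neither passed (adjusted p = 0.0903 and 0.114, limma). Bhlhe41, its relative, rose 1.47-fold from 1994 ± 85.1 to 2934 ± 255 (adjusted p = 0.00831, limma). That rise was not called by DESeq2 (adjusted p = 0.066) or by limma without a variance trend (adjusted p = 0.161). Bhlha15, known as Mist1 and active in secretory cells, fell 1.43-fold from 1436 ± 126 to 1007 ± 145 (adjusted p = 0.000731, limma).

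Genes that E proteins are known to switch on or off in early B cells formed a list of 26, of which 25 were tested (Dntt, at most 17.8, was not). With 4-OHT in TFEB cells 14 fell (beside 13.9% of tested genes), 6 rose (beside 13.7%) and 5 did not pass, with a median log2 change of -0.66 against 0.035. In vector cells 0 of the 25 passed (beside 0.0153% of tested genes), with a median of 0 against 0.027. In the interaction 13 were lower (beside 8.01% of tested genes), 4 were higher (beside 7.75%) and 8 did not pass. Without the 3 gene-rich libraries 13 fell and 6 rose. Some B cell markers are on this list too, among them Cd79b, Pax5 and Ebf1, which fell, and Blnk and Cd79a, which rose. E protein binding was not measured.

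The largest falls were those of the recombinase genes Rag1 and Rag2, which cut immunoglobulin genes for rearrangement. Rag1 read 1218, 1408 and 1169 normalized counts in TFEB cells in vehicle and 124, 89.1 and 70.8 in 4-OHT. Vector cells read 1216, 1366 and 1728 in vehicle and 979, 1172 and 647 in 4-OHT, groups that did not overlap, without passing (log2 -0.65 ± 0.19, unadjusted p = 0.00144, adjusted p = 0.291, limma). In TFEB cells the fall was 13.6-fold (adjusted p = 1.49e-16, limma), with an interaction of -3.11 ± 0.26 (adjusted p = 1.23e-10, limma). Rag2 fell 12.9-fold from 197 ± 66.9 to 18.4 ± 17.7 (adjusted p = 1.78e-08, limma). Of the surrogate light chain genes, which complete the receptor of pre-B cells, Vpreb3 fell 6.35-fold from 6261 ± 425 to 985 ± 55 (adjusted p = 4.84e-20, limma) and Vpreb1 and Igll1 fell 2.9-fold and 2.86-fold. Vpreb2 read 4203 ± 348 and 4369 ± 241 (adjusted p = 0.755, limma), and since Vpreb1 and Vpreb2 are near-identical, the split of reads between them is uncertain.

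Ebf1, Pax5 and Foxo1 encode factors that act with E proteins in the B lineage. Ebf1 read 6558, 7025 and 6281 normalized counts in TFEB cells in vehicle and 2296, 2228 and 2392 in 4-OHT, a fall of 2.87-fold (adjusted p = 3.74e-16, limma). Pax5 read 5058, 5657 and 4327 and then 2438, 1820 and 2101, 2.37-fold lower (adjusted p = 1.8e-11, limma). Foxo1 read 3755, 3969 and 3000 and then 2296, 2274 and 2189, 1.58-fold lower (adjusted p = 7.14e-06, limma). None of the 3 overlapped between the groups, beside 38.0% of all tested genes without overlap. These 3 were picked after their values were seen, as the factors that E proteins are best known to work with. Ikzf3 (2.93-fold), Bach2 (1.97-fold), Cd79b (1.96-fold), Notch1 (1.43-fold) and Spib (1.36-fold) were further members of the list that fell.

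Gfi1, a repressor gene, rose 4.44-fold from 249 ± 26.2 to 1109 ± 91.3 normalized counts (adjusted p = 1.09e-10, limma), with an interaction of 1.97 ± 0.27 (adjusted p = 1.42e-06, limma). Cxcr4, a chemokine receptor gene, read 797, 892 and 756 in vehicle and 2808, 3067 and 2903 in 4-OHT, 3.59-fold higher (adjusted p = 2.39e-15, limma). Cdk6, a cell cycle kinase gene that E proteins are known to repress in lymphocytes, read 1840, 1545 and 1740 and then 4521, 4302 and 4467, 2.6-fold higher (adjusted p = 1.11e-12, limma). Blnk, Pou2af1 and Cd79a, genes of receptor signalling and B cell identity, rose 1.43-fold, 1.35-fold and 1.18-fold. The list therefore moved both ways, and Il7r (2485 ± 46.6 and 2665 ± 174, adjusted p = 0.518, limma) and Irf4 (7152 ± 93 and 7605 ± 387, adjusted p = 0.463, limma) did not pass.

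**Figure D5:**
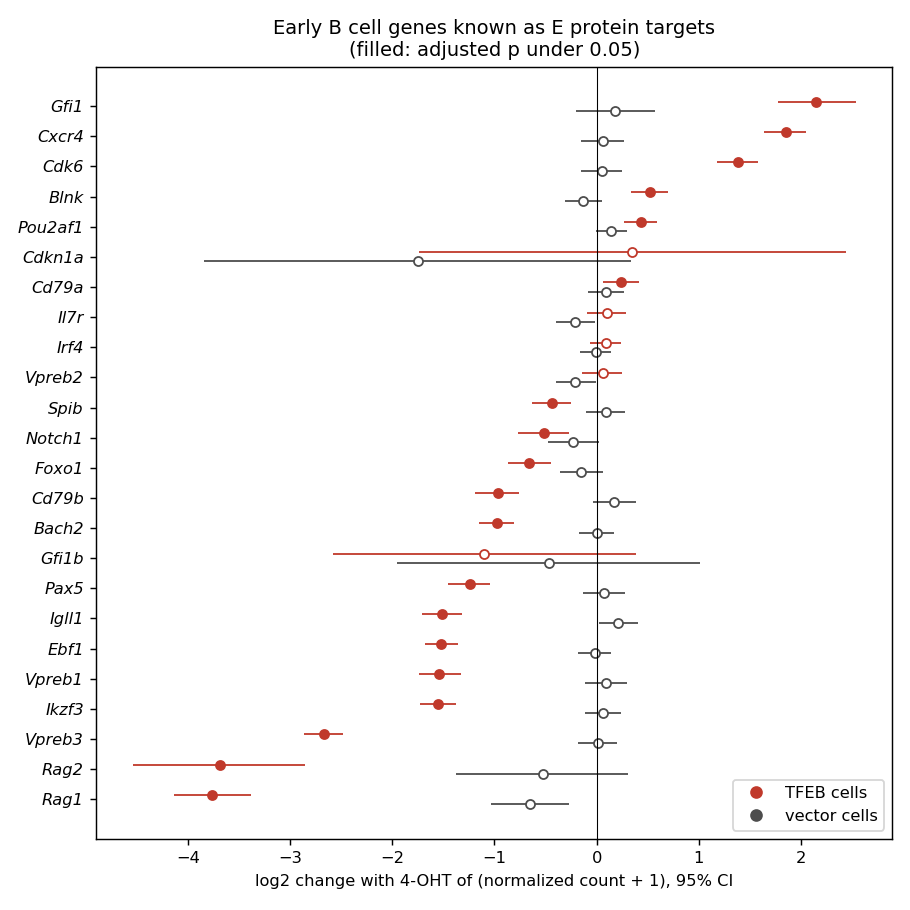
Log2 change with 4-OHT in TFEB cells (red) and vector cells (grey) for 24 of the 25 tested genes known as E protein targets in early B cells (points: limma estimate of log2 of the normalized count + 1, bars: 95% CI, filled: adjusted p under 0.05). In TFEB cells 13 of these genes are filled below 0 and 6 above 0, and in vector cells all points are open.

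Between the lines in vehicle, where Tcf3 and Tcf4 differed in opposite directions, the target list held 1 gene that was higher (beside 2.89% of tested genes) and 2 that were lower (beside 2.49%). Cdk6 was higher in TFEB cells, 1708 ± 150 against 1253 ± 92.9 normalized counts (adjusted p = 0.00451, limma). Cxcr4 was lower, 815 ± 69.8 against 1202 ± 54.8 (adjusted p = 0.000459, limma). Irf4 was lower by 0.27 on average, a call lost without vector vehicle 1, 2 or 3 or TFEB vehicle 1 or 3 (limma adjusted p of 0.0623 to 0.0845). Rag1, Ebf1 and Pax5 were not called in this comparison. Nor was Rag2, though it averaged 2.42-fold lower in TFEB cells (197 ± 66.9 against 462 ± 61.4, adjusted p = 0.0692, limma).

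Signals of bone morphogenetic proteins (BMPs) through SMAD factors, and EGR factors downstream of antigen receptors, are known to switch on Id genes, and 27 such genes were listed. Of these 20 were tested, and with 4-OHT in TFEB cells 4 rose (beside 13.7% of tested genes), 5 fell (beside 13.9%) and 11 did not pass, with a median of 0.79 against 0.035. The 11 had low group means, 0 to 27 normalized counts in both TFEB groups, some of them above the floor, so the median rests mostly on unstable low values. Among receptors, Bmpr2 rose 1.42-fold from 2417 ± 35.9 to 3455 ± 359 (adjusted p = 0.000108, limma), with an interaction of 0.53 ± 0.14 (adjusted p = 0.00588, limma). The type I receptor genes Bmpr1a, Bmpr1b and Acvr1 stayed at group means of 12.7 or less in TFEB cells. Smad1, a main carrier of BMP signals, was not tested (at most 13.1).

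Of the SMAD genes that were expressed, Smad5 fell 1.25-fold from 1568 ± 146 to 1257 ± 88.5 (adjusted p = 0.02, limma) and Smad4 1.22-fold from 3397 ± 292 to 2780 ± 207 (adjusted p = 0.0151, limma). Smad7, an inhibitor of the pathway, fell 1.66-fold from 459 ± 151 to 275 ± 80.3 (adjusted p = 0.0157, limma), with libraries that overlapped. Smad9 (56 ± 12 against 17.8 ± 18.5) and the ubiquitin ligase gene Smurf2 (1.36-fold, adjusted p = 0.00658, limma) were the other falls. These falls were weak: of the 5, 1 was left without TFEB vehicle 1, 0 without TFEB vehicle 2, 1 without TFEB 4-OHT 1 and 3 without TFEB 4-OHT 3 or without the 3 gene-rich libraries. The rises were Smurf1 (24.4 ± 19.7 to 121 ± 7.85, adjusted p = 0.000789, limma), Egr3 (7.39 ± 3.43 to 85.6 ± 10.9, adjusted p = 0.0167), Egr2 (1.43 ± 2.47 to 28.2 ± 7.85, adjusted p = 0.0203) and Bmpr2, of which 2 were left without TFEB vehicle 2, without TFEB 4-OHT 3 or without the 3 gene-rich libraries. Egr2 and Egr3 were at low levels, and any link of theirs to the Id genes was not tested. Egr1, 13.4 ± 23.1 and 20.4 ± 30.5, did not pass (adjusted p = 0.77, limma).

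Id and E proteins are removed by the proteasome, and 10 genes of this turnover were listed and tested. With 4-OHT in TFEB cells 2 rose (beside 13.7% of tested genes), 1 fell (beside 13.9%) and 7 did not pass, with a median of 0.01 against 0.035. In vector cells 0 passed, beside 0.0153% of tested genes, and in the interaction 0 passed, beside 15.8%. Fzr1, an activator of the ligase that marks Id proteins in resting cells, fell 1.37-fold from 1222 ± 210 to 887 ± 45.8 (adjusted p = 0.00582, limma), a call lost without TFEB vehicle 2 (adjusted p = 0.0684). Stub1 rose 1.35-fold (adjusted p = 0.00832, limma) and Skp1a 1.24-fold (adjusted p = 0.0276, limma). The count that fell was 3 without TFEB vehicle 1 or without the 3 gene-rich libraries, 2 without TFEB 4-OHT 2 and 0 without TFEB vehicle 2. The Skp1a call was lost without TFEB vehicle 1 (adjusted p = 0.145), TFEB 4-OHT 2 (0.139) or TFEB 4-OHT 3 (0.0575). Usp1, which removes ubiquitin from Id proteins, read 3967 ± 537 and 3520 ± 226 (adjusted p = 0.238, limma).

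Genes with the pattern most like that of each gene were found by the root mean square difference of the log2 profiles, each centred on its own mean over the 12 libraries, among the 8821 tested genes that averaged 100 or more. The measure is a description with no test, and all profiles share the same libraries. For Id3 the closest were BC035044 (0.19), Sema5b (0.3) and BC048943 (0.35), against a spread of 1.57 of Id3 itself. Sema5b, which encodes a semaphorin, averaged 985, 1090 and 1086 normalized counts in vector vehicle, vector 4-OHT and TFEB vehicle and 105 in TFEB 4-OHT. BC035044 averaged 1040, 1046 and 976 and then 92.8. For Tcf4 (own spread 0.37) they were Me2 (0.08), Atp11b (0.09) and Pole2 (0.1), all highest in TFEB cells in vehicle.

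For Tcf3 (own spread 0.31) the closest genes were Phgdh (0.08), an enzyme gene of serine synthesis, Syk (0.1), the kinase gene next to the B cell receptor, and Cdca7 (0.1). For Tcf12 (own spread 0.11) they were Cpsf4, Gtf3c1 and Phf12 (0.05 each), and for so flat a profile many genes are near. Id2 (own spread 0.9) had no neighbour as near, with Ccdc40 at 0.35, Gbe1 at 0.41 and Lpin1 at 0.44. Gbe1, the glycogen branching enzyme gene, averaged 791, 549, 1473 and 760 in the order of groups above, highest in TFEB cells in vehicle as Id2 was. The neighbours of Id1 were hardly nearer than its own spread of 1.6 (Ern1 1.24, Trmt10b 1.29, Mroh2a 1.3).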

How the data were processed

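RNA-seq of 12 libraries was analysed from the deposited table of 23479 genes. The unit is a nonnegative signal: for each library the authors divided gene read counts by 1 size factor, as the values show. The submitters' processing notes name the build mm10 and the tools HTSeq 0.6.1, DESeq2 1.6.3 and STAR 2.5.3. The sources used here give no annotation, strand setting or filter. Dividing by the value of 1 read gave whole reads (100% of values within 0.001 of a whole number).

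The main test was limma 3.58.1 (R 4.3.3) with a variance trend on log2(normalized count + 1), which understates changes of low genes. It used 1 mean per group, all 12 libraries, 8 residual degrees of freedom, genes at 10 or more in at least 3 libraries, and Benjamini-Hochberg adjustment over 13111 genes at 0.05. SE, 95% CI and fold changes are from this fit on that scale. Overlap was judged on library values. On the recovered reads, edgeR 4.0.16 (quasi-likelihood) and DESeq2 1.42.0 were alternatives, as were other pseudocounts, filters, scalings, spread models and libraries left out; the fit was checked on simulated data. Counts below 3 reads are described as at the floor, which covers counting error only. They entered the fit unchanged.

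The 6 genes, 5 lists (126 entries, 125 found, Tcf24 not) and 7 marker sets (53 markers, 52 found, Trac not) were chosen with earlier results of these data known. Hjv and Adgre1 were found as Hfe2 and Emr1. Named from a list were at most 4 genes per list and comparison, those with the largest change that passed and averaged at least 50 normalized counts; other listed genes are named to account for each direction, and 1 listed gene enters the counts but is not reported here by name. Lengths for levels per kilobase are the union of GENCODE M21 exons, and promoters are from RefSeq. Replicates of a group differed beyond sampling noise (chi-square per degree of freedom of 7.88 or more), so none is a copy of another. This does not show that they were separate cultures. Each library was counted once.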

Additional observations from a re-analysis of the deposited data

Results flagged for a closer look

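The response to 4-OHT differed between TFEB and vector cells, by the interaction term of the limma fit over all tested genes, in 3 of the 6 genes, beside 15.8% of tested genes: Id3 (log2 difference -3.56, adjusted p = 2.84e-12), Tcf4 (-0.85, 4.92e-05) and Tcf3 (-0.37, 0.0337), whose call was lost in 11 of 24 alternatives. It also differed in the partner and helix-loop-helix genes Lmo2 (3.56, 3.58e-07), Lyl1 (1.13, 7.51e-06), Bhlhe40 (2.57, 0.000948), Bhlhe41 (0.88, 0.00553), Cbfa2t3 (0.69, 0.000928), Runx1 (-0.75, 1.62e-05) and Lmo4 (-0.49, 0.0332). The Lmo4 call was lost without vector vehicle 1 or 2, vector 4-OHT 1 or 3, TFEB vehicle 2 or TFEB 4-OHT 3 (limma adjusted p of 0.0599 to 0.136). Without a variance trend the calls of Bhlhe40 (limma adjusted p = 0.114), Bhlhe41 (0.172) and Lmo4 (0.157) were lost. DESeq2 did not call Bhlhe41 either (adjusted p = 0.076). Among known E protein targets the response differed in Rag1 (-3.11, 1.23e-10), Rag2 (-3.16, 0.000162), Vpreb3 (-2.68, 7.12e-16) and Gfi1 (1.97, 1.42e-06), and among inputs to Id genes in Bmpr2 (0.53, 0.00588) and Smurf1 (2.31, 0.0464). Both of these last calls were lost without a variance trend (limma adjusted p = 0.0677 and 0.0814). The Smurf1 call was lost when any of 9 single libraries was left out, and stood in 3 of the 12.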

How the results depend on the processing

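In TFEB cells the 4-OHT changes of Id3, Tcf4 and Tcf3 passed under every alternative run, as did the interactions of Id3 and Tcf4. With the spread modelled without a trend, the calls of Id2 with 4-OHT in TFEB cells (limma adjusted p = 0.0664), of Tcf4 in vehicle (0.16) and in 4-OHT (0.0686) and of Tcf3 in vehicle (0.164) were lost. Tcf12 in TFEB cells missed with TMM scaling (0.0527), and Id2 in vehicle passed with DESeq2 (0.0208) and array weights (0.029).

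Genes called with 4-OHT in vector cells, 2 in the main test, numbered 0 with a pseudocount of 0.5, a minimum of 50, upper-quartile scaling, edgeR, no trend or only the groups compared, 48 with DESeq2, 42 with array weights, 36 without the 3 gene-rich libraries, and 0 to 51 when single libraries were left out. Between the lines in vehicle, 705 became 1224 with DESeq2, 259 with no trend, 1125 with array weights and 352 with only the groups compared, and the 2 of the 6 genes became 0 with no trend and 1 with only the groups compared (433 to 826 genes and 1 to 3 of the 6 with single libraries left out). The other comparisons ranged over 2988 to 3737, 1781 to 2110 and 2991 to 3773 genes and 4 to 5, 2 to 3 and 3 to 4 of the 6 (4-OHT in TFEB cells, interaction, lines in 4-OHT); in vector cells it was always 0. The cause was not tested.

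Signs turned in uncalled values: the Id1 interaction (0.06 with a pseudocount of 10, 0.65 in edgeR), Id1 between lines in vehicle (-0.02 in edgeR), Tcf12 in vector cells (-0.01 with TMM and in edgeR), Id3 in vector cells (0 in edgeR) and Id3 between lines in vehicle (0.01 with array weights). With single libraries left out these ranged over -1.29 to 1.04, -0.89 to 1.43, -0.01 to 0.05, -0.06 to 0.14 and -0.17 to 0.03. Id1 ranged over -1.86 to 0.25 in TFEB cells, -1.68 to 0.48 in vector cells and -0.86 to 1.04 between lines in 4-OHT, the Id2 interaction over -1.11 to 0.04 and Tcf4 in vector cells over -0.21 to 0.05. The listed genes named for the largest changes that passed gave 56 results, all called in the main test. Of 1387 alternatives for these 56, 1288 kept the call, 99 lost it and 0 turned. Listed genes with smaller changes or without a call were not counted here. Samples that share a replicate number deviated together in 1 of 18 pairs (correlation over 0.1, range -0.115 to 0.165), and 12 of 36 matched their own number best, so they were not paired. With a replicate block 3601, 2, 2094, 723 and 3548 genes and 5, 0, 3, 2 and 3 of the 6 were called. Depth left Id1 and Id4 without a measurable difference.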
